A study of Mus musculus with 12 samples.

Results

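Clone 967B4 is 1 of 6 Aid+/+ and 1 of 12 mouse induced pluripotent stem (iPS) cell clones whose expression was measured, with 1 array each. It was chosen by its measured expression levels, which stood apart from those of the 5 other Aid+/+ clones (967B2, 967B6, 979B1, 979B3 and 979B4), so its differences from these 5 are described here with no test and no p-value, and no replicate of the clone exists. The study asked whether Aid is needed for reprogramming, and compared Aid+/+ with Aid-/- clones. Fibroblasts of single embryos of a mixed strain (C57BL6, DBA and 129S4) carrying a Nanog-GFP reporter were reprogrammed with retroviruses for the reprogramming factors, and GFP-positive colonies were picked, so each clone is the line grown from 1 colony. All 12 clones were labelled male, were at passage 6, and were grown in medium with serum, LIF and puromycin on gelatin, after earlier passages on feeder cells that the gelatin passages were meant to remove. The 6 other clones (979F1, 979F2, 979F3, 981E1, 981E4 and 981E5) were labelled Aid-/-. The array of 967B4 lay on the same slide as 967B2 and 967B6, 979F1, 979F2 and 979F3 on another, and the remaining clones on the last.

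Mouse pluripotent cells in serum and LIF move between states. Naive cells express Klf4, Tfcp2l1, Tbx3, Nr5a2 and Nanog at high levels, while cells on the way to differentiation express Dnmt3b, Pou3f1, Zic2 and Sall2. At any time a small share of the cells enters a short 2-cell-like state marked by Zscan4, a family of zinc-finger genes that otherwise is active in the early embryo. A culture can also carry cells of mesenchymal type, left from the fibroblasts or the feeders or made by differentiation, which express collagens, vimentin and S100a4. RNA of the whole culture was measured, so fewer cells of a type and less RNA per cell cannot be told apart.

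Levels are log2 signals minus the 75th percentile of the array, so that 0 is the signal that 3 in 4 probes of the array did not exceed, and a step of 1 is a factor of 2. A probe was called when 967B4 differed by more than 1 (2-fold) from the mean of the 5 other Aid+/+ clones and lay beyond all 5, among 29229 of 55681 probes, those with a signal well above background on each of the 6 arrays (called measured here). Of these, 1190 were called lower (4.07%) and 630 higher (2.16%). The differences just inside and just outside the limit were 1.0007 and 0.9999 on the higher side and -1.0001 and -0.9997 on the lower, and 36 probes past 2-fold were not called because 967B4 lay inside the range of the 5. The same rule applied to each other Aid+/+ clone in turn gave 45 to 175 lower and 132 to 350 higher probes, so 967B4 had the most of both, and the lower probes were the larger set in this clone. In 703 lower and 310 higher probes the gap between 967B4 and the nearest of the 5 was wider than the whole range of the 5, against 5 to 19 and 17 to 62 for the other Aid+/+ clones. For each of those clones the 5 references included 967B4. Where 967B4 was the lowest, no other clone could be called lower, and likewise for the highest. Its outlying levels also widened the range to be exceeded. The counts of the other clones are thus not a background free of 967B4. The lower changes were also the larger ones, with 273 lower probes past 4-fold and 43 past 16-fold, against 42 and 1 higher.

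**Figure D1:**
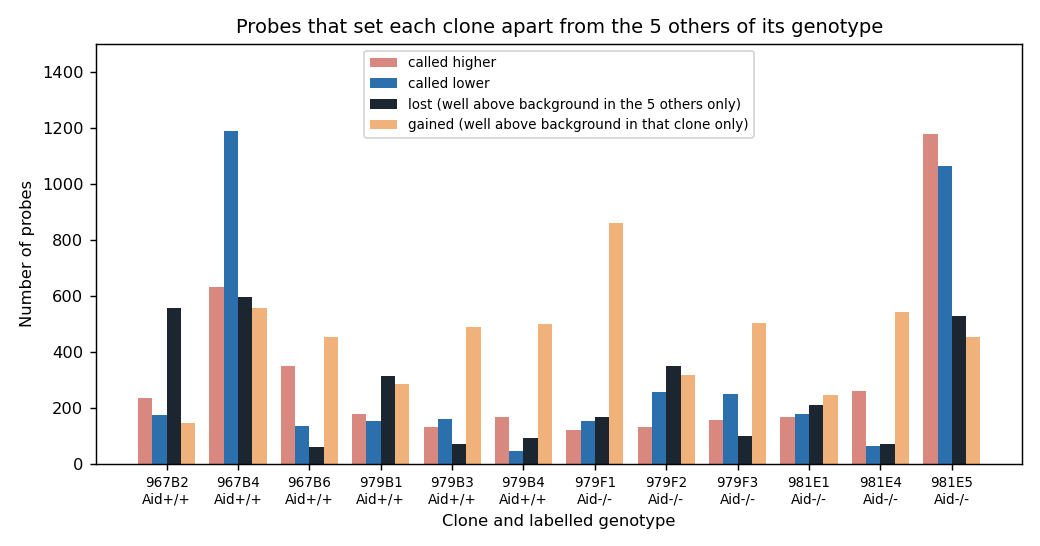
Number of probes (y axis) that set each clone (x axis) apart from the 5 others of its labelled genotype, as bars for probes called higher, called lower, lost (well above background on the 5 other arrays only) and gained (on that array only). Clone 967B4 has 1190 lower probes against at most 175 in another Aid+/+ clone, while lost and gained probes are many in several clones. For each other Aid+/+ clone the 5 others include 967B4.

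A filter on detection hides genes that are silent in 967B4. A further 595 probes (2.00% of those well above background on the 5) were well above background on all 5 other Aid+/+ arrays and not on that of 967B4, and are called lost here. Between 61 and 558 probes were lost in the other Aid+/+ clones by the same rule, but few of those by much. Of the 595 in 967B4, 393 were lost by at least 4-fold and 120 by at least 16-fold, against 0 to 8 and 0 in each other Aid+/+ clone. A probe not well above background in 967B4 could not count as lost in another Aid+/+ clone. These bounds set the mean of the 5 against the higher of the signal in 967B4 and the lowest signal well above background on its array. Where the signal in 967B4 was the higher, the bound equals the plain difference. The bounds hold only for signals as processed here, and another background correction can give less. In the other direction 555 probes (1.69% of those well above background in 967B4) were well above background in 967B4 on none of the 5, and 46 of these were past 4-fold, fewer than the 48 to 154 in each other Aid+/+ clone. Its share of probes well above background was 58.9%, between the 56.9% and 60.2% of the 5, its 75th percentile signal was 440 against 418 to 497, it held 137 outlier spots against 133 to 181, and no spot was saturated. Its lowest level well above background was -6.71, below the -6.55 to -5.55 of the 5, and the median of its deposited log2 column was the lowest of the 12, at -3.78 against -3.71 to -3.60. Reference genes had a median difference of 0.08, with 0 of 20 probes called, and the median over all measured probes was 0.05.

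Among the genes lost or lowest in 967B4 were those of the 2-cell-like state. Zscan4f, which marks that state, had a level of -6.63 in 967B4 against 3.68 in 967B2, 3.19 in 967B6, 2.30 in 979B1, 3.87 in 979B3 and 3.39 in 979B4. It was thus bright in each of the 5 and not well above background in 967B4, 969-fold below their mean in the signals as processed here. With normexp background correction, which adds an offset to every signal, its difference from the mean of the 5 was -5.97 on the log2 scale in place of -9.92. All 6 probes for the 3 Zscan4 genes on the array (Zscan4a, Zscan4c and Zscan4f) were lost, by at least 71.6-fold to at least 969-fold, and all 6 were well above background on the 6 arrays labelled Aid-/-, where Zscan4f lay between 1.91 and 4.15. The copies of this family are near identical, so that a probe named for 1 of them may read the others.

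The promoters of the family are shown because all measured members were lost together. Zscan4d had no probe on the array. They are given 5′ to 3′ from RefSeq (GRCm38.p6), all on chromosome 7, as the stretch around an inverted TGAT repeat, in capitals, of the letters TGATTNNATCA on either strand. The stretches lie at chr7:11005591-11005716 on the plus strand for Zscan4c, chr7:11166188-11166313 on the minus strand for Zscan4d and chr7:11397784-11397909 on the plus strand for Zscan4f.
Zscan4c: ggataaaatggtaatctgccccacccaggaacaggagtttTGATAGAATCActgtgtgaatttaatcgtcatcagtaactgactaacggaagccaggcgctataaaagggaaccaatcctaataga
Zscan4d: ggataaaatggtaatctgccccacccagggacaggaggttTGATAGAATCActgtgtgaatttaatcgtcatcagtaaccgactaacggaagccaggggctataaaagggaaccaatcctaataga
Zscan4f: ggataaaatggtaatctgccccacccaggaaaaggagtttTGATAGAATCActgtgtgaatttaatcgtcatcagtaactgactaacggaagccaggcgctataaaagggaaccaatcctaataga
Over these 126 bases Zscan4c and Zscan4f were identical at 125, Zscan4c and Zscan4d at 122, and Zscan4d and Zscan4f at 121. The repeat stood in 58 of 32851 promoters of mouse genes searched over the 250 bases before the start (0.177%), and the TATAAA motif downstream of it, also found in all 3 stretches, in 12.4%. A match of letters is a description of the sequence and says nothing on which factor was bound.

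Of the 14 genes listed for the 2-cell-like state, 11 had a probe, and 8 of these had a lost probe in 967B4. Among all 15956 genes with a probe well above background on any of the 6 arrays, 1105 (6.93%) had a probe called lower or lost. Tmem92, a small membrane protein gene, had a level of -7.09 against -2.23 to -0.64 (at least 46.1-fold lower), Tcstv1 -7.10 against -2.45 to -1.49 (at least 26.2-fold) and Tcstv3 -7.11 against -3.15 to -2.17 (at least 18.2-fold). The ubiquitin protease genes Usp17la, Usp17lb and Usp17lc each had a lost probe. Over all 15 probes of the list well above background on any of the 6 arrays the median difference was -4.58, against 0.04 over all such probes. The 3 probes of the list measured on all 6 arrays gave a median of 0.23, because the silent genes were not among them. Zfp352, a retrotransposed gene of the 2-cell embryo, was at 3.47 with its brighter probe against 2.65 to 3.41, above the 5 but within 2-fold, and its dimmer probe was not well above background in 967B4 and in 2 of the 5.

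The Pramel genes, a large family of leucine-rich-repeat genes active in germ cells and the early embryo, were in part silent as well. Of 17 Pramel genes well above background on any of the 6 arrays, 9 were called lower or lost in 967B4, where the share over all genes was 6.93%. Pramel39 was at -4.58 against 0.02 to 1.74, Pramel20 at -1.72 against 1.44 to 3.24, Pramel31 at -6.55 against -0.79 to 1.08 and Pramel16 at -7.39 against -1.25 to 0.68. Pramel12, at 2.16 against 1.95 to 2.44, and Pramel13, at 2.78 against 2.79 to 3.24, kept levels close to those of the 5. The family was named after its values had been seen.

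Predicted genes that share this pattern filled the list of the largest differences. Gm4340 had the lowest difference of all genes measured on all 6 arrays, -7.57 (-4.70 against 1.87 to 3.49). AF067061 was at -4.17 against 2.03 to 3.91, Gm20767 at -4.82 against 1.45 to 2.75, Gm4312 at -4.63 against -0.01 to 1.49, Gm4303 at -4.37 against -0.35 to 0.96, Gm2022 at -3.51 against 0.37 to 1.76 and BB287469 at -2.87 against 1.17 to 2.45. Gm13043 was lost by at least 286-fold. Each of these 8 genes lay below all 11 other clones. Neighbouring genes were called lower together, with Gm20767, AF067061 and BC147527 in 1 run of measured genes on chromosome 13, BB287469, Gm2016, Gm2022, Gm7104 and Gm5039 in 1 on chromosome 12, and Gm4303 and Gm4312 beside Kitl on chromosome 10. On chromosome 14 the homeobox genes Cphx1 (-2.04 against -0.14 to 0.58), Duxbl1 (-4.42 against -1.51 to -0.99) and Duxbl2 (-0.57 against 1.77 to 2.71) formed a run of 5 with Plac9a and Tmem254a. Probes of such duplicated genes may also read each other.

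**Figure D2:**
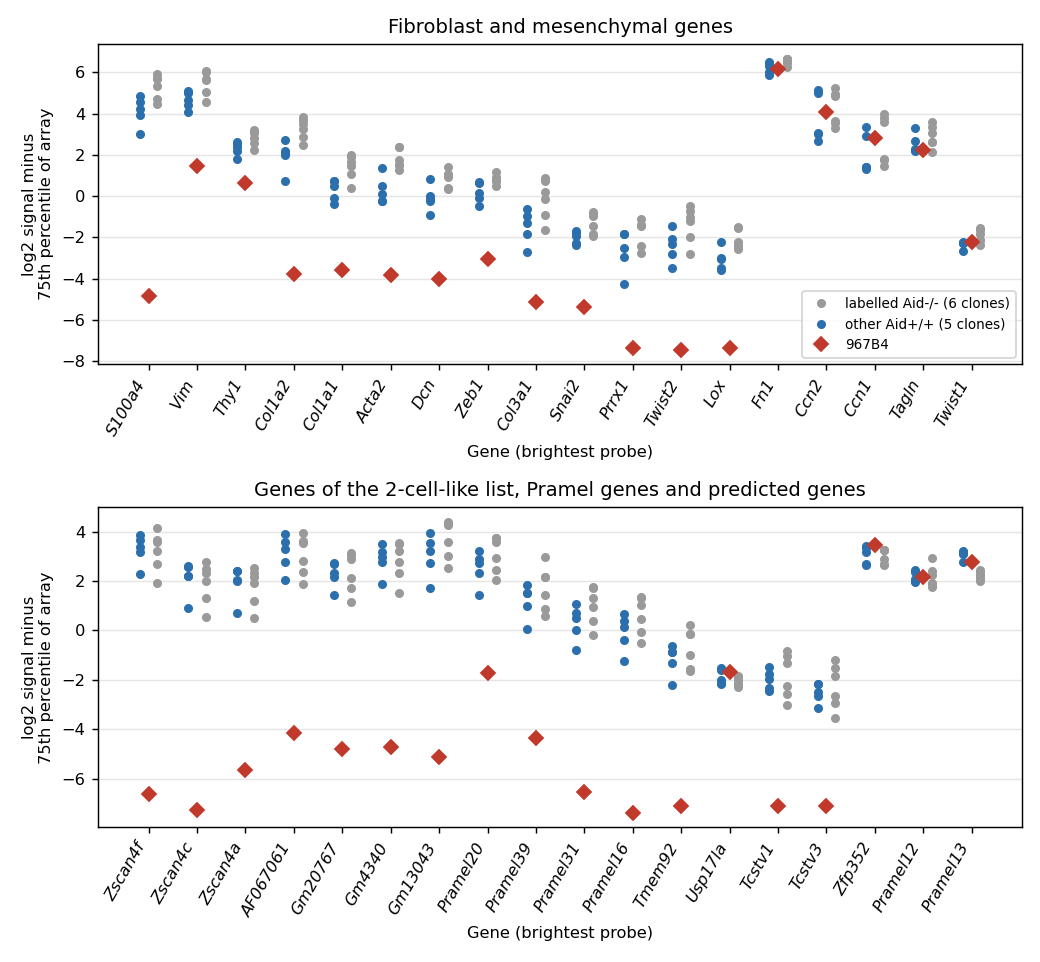
Level (log2 signal minus the 75th percentile of the array, y axis) of fibroblast and mesenchymal genes (top) and of genes of the 2-cell-like list, Pramel genes and predicted genes (bottom), with the brightest probe of each gene, 1 point per clone for 967B4 (red diamond), the 5 other Aid+/+ clones (blue) and the 6 labelled Aid-/- (grey). In 967B4 S100a4 lies at -4.83 and Zscan4f at -6.63, far below every other clone, while Fn1, Ccn2 and Pramel12 lie within the others.

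Fibroblast genes were the other group that was largely lower or lost. S100a4, a calcium-binding protein of mesenchymal cells, was at -3.73 in 967B4 against 4.21 in 967B2, 2.74 in 967B6, 3.58 in 979B1, 4.49 in 979B3 and 3.92 in 979B4. It was a bright gene in each of the other clones and dim in 967B4, 183-fold lower, and its other probe was lost by at least 495-fold. Col1a2, which encodes a chain of type I collagen, was at -3.79 against 2.16, 0.75, 1.97, 2.71 and 2.11 in the same order, a difference of -5.73 (SD of the 5 0.72). Vim, the intermediate filament of mesenchymal cells, was at 1.46 against 5.01, 4.07, 4.42, 5.09 and 4.66, a difference of -3.19 (SD 0.42). Unlike S100a4 and Col1a2, Vim stayed a clearly detected gene in 967B4, and none of the 3 overlapped the range of the 5.

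Of the 22 genes listed as fibroblast markers, all had a probe and 15 were called lower or lost, beside 6.93% of all detected genes. Called lower were Acta2 (smooth muscle actin), Col1a1, Col1a2, Dcn (decorin), S100a4, Thy1, Vim and Zeb1, and lost were Col3a1, Fbn1, Lox, Prrx1, Snai2, Twist2, Zeb2 and a probe of S100a4. The transcription factors Snai2 and Twist2, which drive the mesenchymal state, were lost by at least 10.2-fold and at least 19.5-fold. The median difference was -3.19 over the 13 probes measured on all 6 arrays and -3.29 over the 24 detected on any. The list did not move as a whole. Fn1 (fibronectin) was at 6.15 against 5.86 to 6.50, Tagln at 2.22 against 2.18 to 3.29, Ccn2 at 4.05 against 2.69 to 5.13, Ccn1 at 2.82 against 1.33 to 3.37 and Twist1 at -2.23 against -2.67 to -2.24. The mean level of the list over 24 probes was -3.22 in 967B4, between -0.57 and 0.39 in the 5 and between 0.26 and 1.22 in the clones labelled Aid-/-. In 967B4 the probes of Twist2, Lox, Prrx1, Postn and Lum were not well above background, and those of Col1a1, Col1a2, Acta2 and Dcn were, at levels up to -3.57.

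Genes outside the list that mesenchymal cells are known to express were among the lowest too. Timp2, an inhibitor of matrix proteases, was at -0.75 against 3.09 to 4.72, and Emp1, a membrane protein, at -2.82 against 1.03 to 2.85. Prl2c5, a gene of the prolactin family known as proliferin that growing fibroblasts make, was lost by at least 1279-fold with 1 probe (-7.07 against 2.61 to 4.43) and was 179-fold lower with the other (the difference of the first was -6.15 on the log2 scale with normexp and -10.68 without), although the near-identical Prl2c copies may share these probes. Of 36 collagen genes detected on any of the 6 arrays, 15 were called lower or lost, beside the 6.93% of all genes, and Col13a1 was gained (at least 3.31-fold). Col6a3 was lost by at least 33.7-fold and Col6a1 stood at -4.40 against -1.62 to 0.50, whereas Col18a1 (4.63 against 4.76 to 5.12), Col7a1 and Col2a1 changed by under 2-fold. These genes were picked after their values had been seen. The mesenchymal growth factor receptor Pdgfra, listed here among endoderm markers, was lost by at least 27.9-fold, and Dab2 and Cubn of that list by at least 11.5-fold and at least 6.74-fold, while Gata4 and Gata6, which define primitive endoderm, lay within the range of the 5.

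How the lost probes varied over the other genotype was looked at as well. Over the 6 clones labelled Aid-/-, 91 of 421 lost probes (21.6%) followed the mean of the 9 lost fibroblast probes with a Pearson r over 0.9, and 39 of 424 (9.20%) followed that of the 6 Zscan4 probes. Among all probes measured on all 6 Aid+/+ arrays these shares were 5.69% and 0.575%. These 6 clones fall into 2 series on 2 slides, which any pair of genes that differs by series shares, and the correlations are a description with n = 6. The lost probes and the measured probes also differ in kind, since the former were chosen by detection and level, so the shares were not compared further.

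Dlk1, which encodes a membrane ligand made by mesenchymal and progenitor cells and is expressed from the paternal allele, was lower with both probes. With the brighter 1 it was at -2.68 in 967B4 against 2.61, 1.59, 3.07, 3.79 and 3.18 in 967B2, 967B6, 979B1, 979B3 and 979B4, a difference of -5.53 (SD 0.82), and with the other it was lost by at least 25.9-fold. The maternally expressed genes of the same cluster, Meg3 and Mirg, were lost by at least 98.7-fold and at least 9.04-fold. Meg3 was far more variable than Dlk1 in the other clones, from -1.81 to 1.52 in the 5 and from -5.35 to 2.85 in the clones labelled Aid-/-, so that 967B4 was not the sole clone with little Meg3. Rtl1 was not well above background on any of the 6 arrays, and Dio3, well above background on 5 of them, was at -4.12 in 967B4 against -5.03 to -3.94.

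Other imprinted genes differed less. Of the 30 listed genes measured on all 6 arrays, 8 were called lower and 1 higher, with 10 of 50 probes lower, and the median difference over the 50 probes was -0.38. The whole set of 13808 genes measured on all 6 arrays held 784 with a probe called lower and 342 with a probe called higher. Magel2 was at -2.58 against -1.59 to -0.04, the zinc-finger gene Peg3 at 0.59 against 2.14 to 2.52 with its neighbour Usp29 at -4.52 against -2.92 to -2.39 (a difference of -1.81, or -0.68 and not called with normexp), Snrpn at 2.08 against 3.00 to 3.82 and Ascl2, a transcription factor of the placenta, at 0.78 against 1.95 to 2.73. Both probes of Nnat were lost, by at least 11.0-fold and at least 11.3-fold. Slc22a18 was higher, at 1.61 against -0.11 to 0.77, and Igf2r, Peg10 and Plagl1 lay within 2-fold.

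Genes that cells switch on within minutes of a growth signal, through the ERK kinase pathway, were higher in 967B4. Fos, a subunit of the AP-1 transcription factor, had the largest positive difference of all measured probes, with a level of 2.65 in 967B4 against -1.44 in 967B2, -1.49 in 967B6, -0.65 in 979B1, -1.70 in 979B3 and -1.51 in 979B4. The 5 lay within 1.05 of each other and 967B4 was 16.1-fold above their mean (difference 4.01, SD 0.41). Its partner gene Fosb was at 0.29 against -2.38, -3.01, -2.31, -2.68 and -2.49, 7.25-fold above the mean. Egr1, an early zinc-finger factor, was at 3.74 against 2.03, 1.84, 1.49, 1.16 and 1.66, 4.31-fold above. None of these 3 overlapped the 5, and for Fos and Fosb no clone labelled Aid-/- came within 1 unit of 967B4. Egr1 differed between the Aid-/- series, at 0.10 to 0.36 in 979F1, 979F2 and 979F3 and 2.36 to 3.00 in 981E1, 981E4 and 981E5, all below 967B4.

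The promoter of Fos is shown because it carries the short element through which cyclic AMP and growth signals are known to act. It is given from RefSeq (GRCm38.p6) at chr12:85473794-85473887 on the plus strand, 5′ to 3′, with the letters TGACGT in capitals.
Fos: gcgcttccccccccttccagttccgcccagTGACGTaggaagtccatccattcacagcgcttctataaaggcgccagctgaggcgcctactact
The letters TGACGT, searched on both strands of the 250 bases before the start, stood in 2125 of 32851 promoters (6.47%).

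Over all 13808 genes measured on all 6 arrays, 342 had a probe called higher and 784 a probe called lower. Of 20 listed immediate-early and ERK feedback genes measured on all 6 arrays, 8 were called higher and 0 lower, and the median difference over 21 probes was 0.98. Besides Fos, Fosb and Egr1 these were Egr2 (-0.55 against -4.06 to -2.43), the stress-induced factor Atf3 (0.21 against -3.66 to -0.80), Junb, the phosphatase Dusp4 and Etv4, both of whose probes were called. With normexp 6 of the 8 were called, since Junb differed by 0.55 and Dusp4 by 0.94, and neither was called without 1 of the 5 (0.98 without 967B2 for Junb and 0.91 without 979B1 for Dusp4). Egr2 and Atf3 each reached a higher level in at least 1 clone labelled Aid-/-, at -0.32 and 0.61. Jun (3.63 against 2.37 to 3.15) and Spry4 (-0.73 against -2.12 to -1.13) lay above all 5 but under 2-fold from their mean. Not all ERK targets were higher. Etv5 was at 6.26 against 6.49 to 6.88, and Dusp6, Myc, Ier3 and Spred1 lay within the range of the 5.

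**Figure D3:**
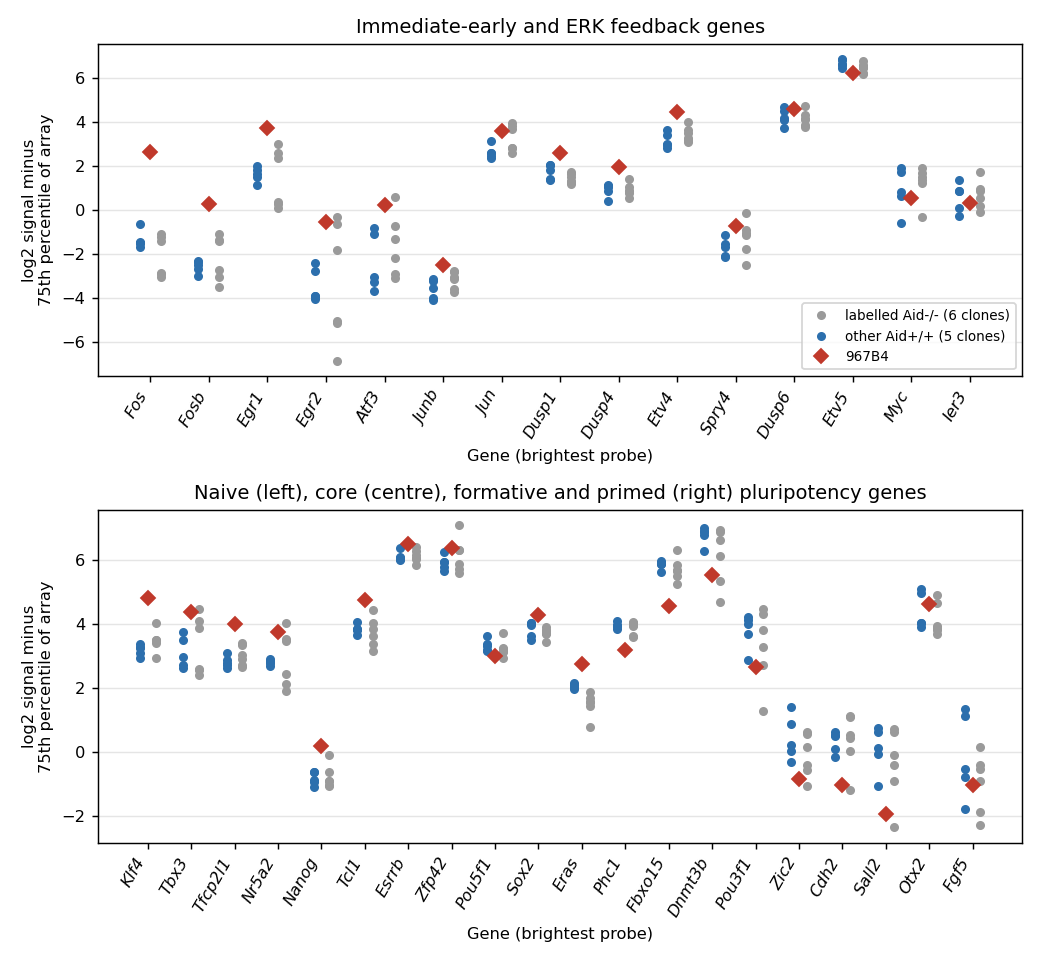
Level (log2 signal minus the 75th percentile of the array, y axis) of immediate-early and ERK feedback genes (top) and of pluripotency genes (bottom), with the brightest probe of each gene, 1 point per clone for 967B4 (red diamond), the 5 other Aid+/+ clones (blue) and the 6 labelled Aid-/- (grey). Fos in 967B4 lies at 2.65, above all 11 others, Klf4 at 4.79, above all 11, and Dnmt3b at 5.51, below the 5 but within the clones labelled Aid-/-.

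Naive pluripotency factors were higher and no listed one was called lower. As a background, 342 of all 13808 genes measured on all 6 arrays had a probe called higher and 784 a probe called lower. Klf4, one of the reprogramming factors and a naive transcription factor, was at 4.79 in 967B4 against 2.93 in 967B2, 3.08 in 967B6, 3.24 in 979B1, 3.36 in 979B3 and 3.27 in 979B4. The 5 were close together and 967B4 was 3.05-fold above their mean (difference 1.61, SD 0.17). Klf4 was also introduced by retrovirus, and whether its probe also reads the vector's transcript is not given in the sources used here. The clones labelled Aid-/- reached 2.93 to 4.02. Nanog, the homeobox factor whose reporter was used to pick the colonies, was at 0.19 against -0.89, -1.10, -0.62, -0.93 and -0.64, a difference of 1.03 (SD 0.21) just past the 2-fold limit. That call ended in 5 of 13 recomputations with other settings, which gave 0.87 to 1.18, among them 0.87 with normexp, 0.99 with the percentile taken over probes detected on all 12 arrays and 0.96 without 967B6. Tfcp2l1 (4.00 against 2.61 to 3.09), Tbx3 (4.36 against 2.60 to 3.75) and Nr5a2 (-0.88 against -2.35 to -1.65 with the dimmer probe) completed the 5 called genes of the 17 on the list, all of which were measured on all 6 arrays. With normexp 3 of the 5 were called, Nr5a2 being at a difference of 0.79. The calls of Tbx3 and Nr5a2 also ended against 967B2 and 967B6 alone and against the clones labelled Aid-/-. For Tbx3 the difference there went down to 0.73. The median difference over 20 probes was 0.57, and the mean level of the list was 3.04 in 967B4, 2.39 to 2.49 in the 5, which hardly differed among themselves, and 2.18 to 2.78 in the clones labelled Aid-/-. Dppa3 lay within the range of the 5, and Pecam1 was at -0.70 against -0.48 to -0.13.

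The core of the pluripotency network was little changed. Pou5f1 (Oct4) was at 3.00 against 3.16 to 3.61, Sox2 at 4.27 against 3.48 to 4.03, Utf1 at 6.43 against 6.11 to 6.33 and Sall4 at 3.33 against 3.61 to 4.14. Of 20 core genes 1 was called higher (Nanog) and 1 lower, Fbxo15, at 4.54 against 5.61 to 5.94. Eras, a Ras-like gene of embryonic stem cells, was at 2.74 against 2.04, 2.16, 1.97, 2.09 and 2.08 in 967B2, 967B6, 979B1, 979B3 and 979B4, a difference of 0.68, and Phc1, a Polycomb gene high in pluripotent cells, was at 3.19 against 3.84, 3.92, 3.94, 4.08 and 3.95, a difference of -0.76. Neither reached 2-fold. The 5 spanned 0.19 for Eras and 0.24 for Phc1, with an SD of 0.07 and 0.09, and 967B4 lay outside them and outside the 6 clones labelled Aid-/-. The Polycomb list, which includes Phc1, gave 0 called probes of 34, with a median difference of -0.01.

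Genes of the formative and primed states were lower. Of 13 listed genes, all measured on all 6 arrays, 5 were called lower and 0 higher, with a median difference of -0.95 over 17 probes. Over all 13808 genes measured on all 6 arrays, 784 had a probe called lower and 342 a probe called higher. The de novo DNA methyltransferase Dnmt3b was called with all 3 probes, the brightest at 5.51 against 6.77, 6.89, 6.25, 6.85 and 6.97, a difference of -1.24 (SD 0.29). Sall2 was at -1.93 against -1.07 to 0.73, Zic2 at -0.85 against -0.31 to 1.39, the neural cadherin Cdh2 at -1.04 against -0.16 to 0.62 and Pou3f1 at 2.65 against 2.87 to 4.22. Otx2 (4.62 against 3.89 to 5.08) and Fgf5 (-1.02 against -1.79 to 1.35) lay within the 5. The mean level of the list was 0.73 in 967B4 and 0.97 to 1.86 in the 5, among which 979B1 was lowest, but the clones labelled Aid-/- went as low as -0.03, in 981E5. The naive shift and the lower primed genes of 967B4 were thus of unlike standing, the former beyond all 11 other clones and the latter not.

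The other large differences on the higher side belonged to genes of varied function. Nkx6-3, a homeobox gene, was at -0.90 against -4.48 to -3.28 (7.65-fold), Bcor, a BCL6 corepressor, at 0.44 against -2.48 to -1.97 (6.59-fold) with 1 probe, Ntn1, which encodes the guidance factor netrin, at 0.80 against -2.66 to -1.30 (6.53-fold), and Kdelr3, a receptor that returns proteins to the endoplasmic reticulum, at 3.23 against 0.06 to 1.24 (6.43-fold). The other probe of Bcor went the opposite way, at 1.22 against 1.66 to 2.46. The acetyltransferase gene Crat, the transglutaminase gene Tgm2, the mesendoderm factor Eomes (1.25 against -1.35 to -0.69), Mocos, Carmil3, B4galnt2, Grik3 and Dab1 followed, at 4.38-fold to 5.60-fold. With normexp the difference of Dab1 was 0.96, under 2-fold. All of these lay above the 6 clones labelled Aid-/- as well. Bmp4, the growth factor that supports naive cells together with LIF, was at 4.30 against 1.07 to 2.73, and Vegfa was called with both probes. On the mesoderm list Eomes and Gsc were higher and Hand1 and Nkx2-5 lower, but with normexp the differences of Gsc (0.49), Hand1 (-0.52) and Nkx2-5 (-0.39) were under 2-fold, and T, which marks the primitive streak, was at -3.64 against -4.96 to -3.63. Among Wnt targets Cdx1 was called, at 1.54 against -0.72 to 0.24, while Sp5 and Lef1 were not.

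Genes well above background in 967B4 alone were dim. The 5 named genes with the largest bounds were 1700081H04Rik (-2.27, at least 13.6-fold), Btnl10 (-2.65, at least 11.6-fold), Spag11a (-2.47, at least 9.08-fold), Olfr58 (-3.26, at least 7.63-fold) and Cxcr3 (-2.99, at least 7.08-fold), and none was well above background on an array labelled Aid-/-. With normexp their differences were 1.15, 0.70, 1.05, 0.76 and 0.74 on the log2 scale, in the same order, against 4.45, 4.36, 3.33, 3.79 and 3.22. The median level of the 555 gained probes was -4.61, lower than the -3.31 of the mean of the 5 at the lost probes.

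Interferon-inducible genes were lower. Where 784 of all 13808 genes measured on all 6 arrays had a probe called lower and 342 a probe called higher, the list held more lower genes. Of 13 listed genes measured on all 6 arrays 6 were called lower and 0 higher, and the median difference was -0.98 over 14 probes. These were the antiviral genes Oas1a (0.48 against 1.78 to 2.80) and Oasl2, the membrane proteins Ifitm1 (5.29 against 6.19 to 6.89) and Ifitm3, the transcription factor Irf1 (2.88 against 3.77 to 4.30) and B2m, which carries class I antigen molecules (1.57 against 1.77 to 3.11). The calls of B2m (-0.88 without 979B3) and Ifitm3 (-0.99 without 967B6 and just inside the limit without 967B2) ended when 1 of the 5 was left out, for B2m also without 979B1 (-0.98) or 979B4 (-0.99). Bst2 was at 5.36 against 4.33 to 4.94, and Stat2, Ifit2 and Ifitm2 lay within the range of the 5. The mean level of the list was -1.19 in 967B4, -0.40 to -0.10 in the 5 and -0.69 to -0.09 in the clones labelled Aid-/-, and it moved with the fibroblast genes, which were lower in the same clone. The part of mesenchymal cells in it was not tested.

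Germ cell genes were in part lower. Stra8, which starts meiosis, was at 0.63 against 1.94 to 4.27, the testis ribosomal protein gene Rpl10l at 3.31 against 4.43 to 6.04 and Hormad1 at -0.85 against 0.32 to 0.71, while Dazl and Ddx4 were level with the 5. In all 3 of the 18 measured genes of this list were called lower and 0 higher, beside 784 and 342 of all 13808 genes measured on all 6 arrays. On the X chromosome 71 of 653 measured probes (10.9%) were called lower and 7 (1.07%) higher. That was the highest share of lower probes of any chromosome but the Y with its 9 probes. Between 0 and 3 X-linked probes were lower in each other Aid+/+ clone, with 967B4 among its references. The reproductive homeobox (Rhox) cluster held part of the X-linked probes lower in 967B4. Of 18 Rhox genes detected on any of the 6 arrays 11 were called lower or lost, beside 6.93% of all genes, among them Rhox5, at 6.62 against 8.39, 8.50, 7.95, 8.48 and 8.52, Rhox6 at 1.00 against 2.33 to 2.96 and Rhox9 at 1.61 against 3.08 to 3.67. Rhox5 was bright in all clones and the 5 lay within 1 unit of each other, and 967B4 was below them but not below 981E5, at 6.55. The family was named after its values had been seen. The median difference over all X-linked probes was -0.04, and those of the autosomes lay between -0.01 and 0.10, so none of these was shifted as a whole. That of the 9 Y-linked probes was -0.95. The corresponding Y median was 1.72 in 967B6, a larger departure in the other direction, and -0.44 to 0.24 in the rest. A departing Y median was thus not particular to 967B4.

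**Figure D4:**
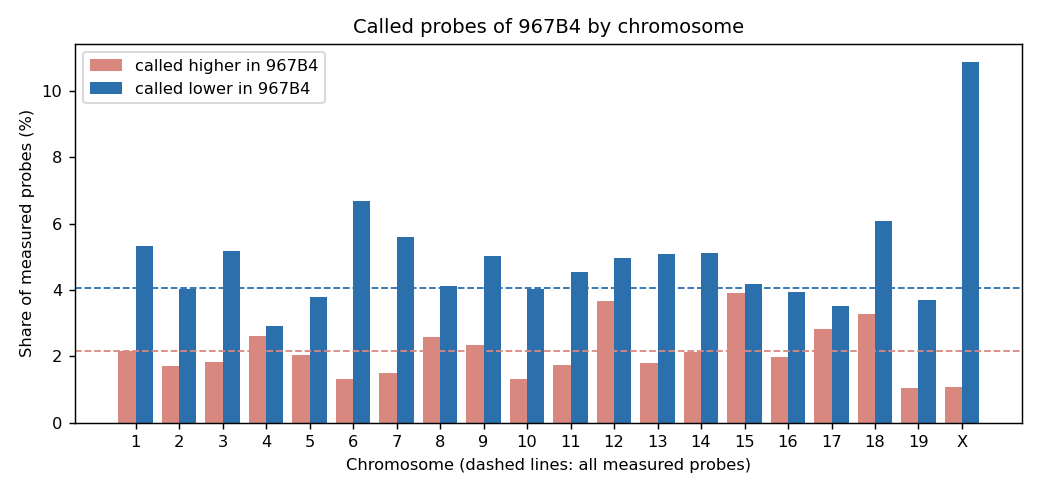
Share of measured probes (%, y axis) called higher (red bars) or lower (blue bars) in 967B4 on each chromosome (x axis), with dashed lines at the shares of all measured probes, 2.16% and 4.07%. The Y, with 9 probes, is not plotted. Of the chromosomes shown the X has the highest share of lower probes, 10.9%, and a share of higher probes of 1.07%.

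Among Y-linked genes Zfy1 was at -3.31 against -0.95 to 0.87 and Ddx3y at 1.02 against 1.56 to 3.44, and both were called, Ddx3y not with normexp (-0.94) or without 967B6 (-0.68). Eif2s3y, at 3.74 against 3.87 to 5.61, and Uty were not. Clone 967B6 had the highest level of the 5 for each of these genes, and 979B1 had 4 Y-linked probes called lower by the same rule. Runs of at least 3 neighbouring measured genes called in 1 direction numbered 14 for lower and 2 for higher genes, and 35 for lower genes when lost probes were counted too. The longest with lost probes held 6 genes each, 1 with Cphx1 and the Duxbl genes and 1 of Pramel34, Pramel37, Pramel39, AA792892, Pramel48 and E330014E10Rik on chromosome 5. The others included Meg3 with Dlk1 and Mirg, Peg3 with Peg3os and Usp29, Ifitm1 with Ifitm3 and Ifitm6, and the complement genes C1ra, C1s1 and C1s2. The higher runs were Tfcp2l1, Gli2 and Inhbb on chromosome 1, and the odorant receptor genes Olfr1384, Olfr1383 and Olfr1382 on chromosome 11.

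Of 5856 measured lincRNA probes, designed by position on mm9, 155 (2.65%) were lower and 166 (2.83%) higher. The excess of lower probes was thus not seen in lincRNA probes, while probes of named genes showed it (4.80% against 2.08%). Probes of neither kind were not counted apart. The lowest came from 2 probes for chr15:96984422-97000322, at -4.14 and -3.83 against -0.28 to 1.15 and -0.05 to 1.41, followed by chr1:53215418-53244461, at -3.19 against 0.63 to 1.24. The highest came from 2 probes for chr11:87872568-87880978, at -0.79 and -0.59 in 967B4 against -3.92 to -2.05 and -3.60 to -1.80, and 1 for chr8:124355710-124401160, at -0.51 against -3.24 to -2.15. Clone 981E5 was above 967B4 for 2 of these 3 probes, at -0.30 for the first and 1.18 for the last.

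**Figure D5:**
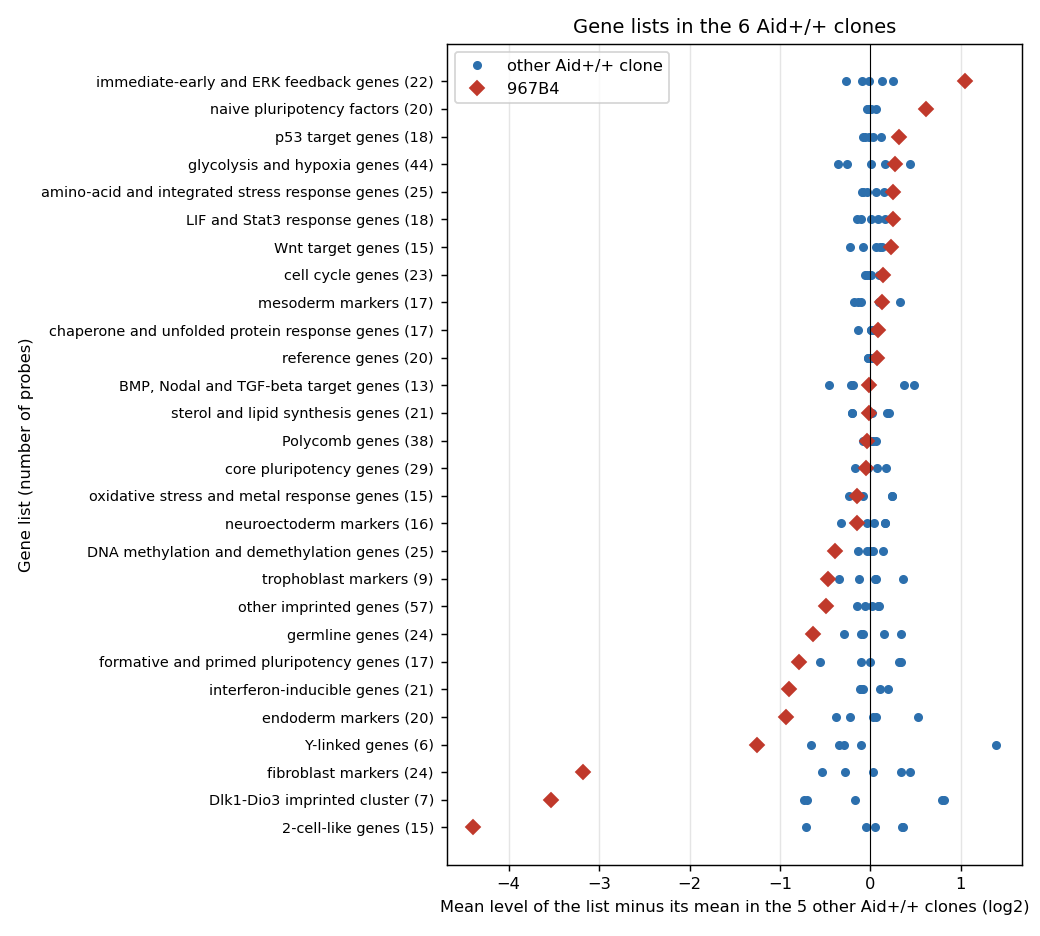
Mean level of each gene list (y axis, with its number of probes well above background on any of the 12 arrays) minus its mean in the 5 other Aid+/+ clones (x axis, log2) for 967B4 (red diamond) and each of the 5 (blue). Clone 967B4 lies far below the 5 for the 2-cell-like list, the Dlk1-Dio3 cluster and the fibroblast markers, and above them for the immediate-early list and the naive factors.

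The remaining lists held few called genes. No probe was called among the 17 cell cycle genes, 13 chaperone genes and 12 oxidative stress genes. Of 25 glycolysis and hypoxia genes only Vegfa was called, of 20 amino-acid and stress response genes only Chac1 and of 14 p53 targets only Perp, all higher. On the neuroectoderm list Pax3, and on the trophoblast list Gata3, were called lower, and of BMP, Nodal and TGF-beta targets Lefty1 was lower. The call of Pax3 ended with normexp (-0.36), without 979B3 (-0.99) and, just inside the limit, without 967B2, and that of Lefty1 without 967B2 (-0.96) and without 967B6 (-0.99). Of the LIF and Stat3 response genes Junb, Klf4 and Tfcp2l1 were higher, Osmr, a cytokine receptor of mesenchymal cells, was lost by at least 18.0-fold, and Socs3 and Pim1 lay within the range of the 5.

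The called probes were set beside the 6 clones labelled Aid-/-. The level of 967B4 that led to the call enters this too, so the shares are a description. Of the 1189 lower probes with a value on all 12 arrays, 989 (83.2%) were also below all 6, against 17.5% of all measured probes, and of the 630 higher probes 499 (79.2%) were also above all 6, against 31.5%. Of the 595 lost probes 537 (90.3%) were below all 6 and 430 were well above background on all 6 arrays. The median difference of the lower probes was -1.46 from either group, that of the higher ones 1.23 from the Aid+/+ and 1.31 from the Aid-/- clones.

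Over the measured probes the mean Euclidean distance of 967B4 to the 5 was 107.2 log2 units. For each of the 5 the mean distance to the other Aid+/+ clones, 967B4 among them, was 73.4 to 80.5. Its nearest clone was 979B1, at 93.7, not one of the clones of its own series and slide, which lay at 117 (967B2) and 111 (967B6) from it and at 43.6 from each other. Against 967B2 and 967B6 alone, and against 979B1, 979B3 and 979B4 alone, 859 probes were lower and 344 higher in both. One other clone stood apart from its genotype to a like degree. Clone 981E5 had 1064 lower and 1177 higher probes against the 5 other clones labelled Aid-/-, but 52 probes lost by at least 4-fold, where 967B4 had 393. Its fibroblast list had the lowest mean level of the 6 clones, at 0.26 in a range up to 1.22, and its 2-cell-like list the highest, at -0.45 in a range down to -2.03. The genes whose profile over the 6 Aid-/- clones was most like that of Klf4 were Rcn1 (Pearson r 0.997, n = 6), Gin1 (0.986), Haus7 (0.984), Mep1b (0.983) and Ngef (0.983). In 967B4 Rcn1 differed from the mean of the 5 by 0.59, Gin1 by -0.23, Haus7 by 0.30, Mep1b by -1.52 and Ngef by -1.41. The genes were picked as the highest of many correlations over 6 clones in 2 series, so their r values are a description.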

How the data were processed

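Total RNA of 12 clones was hybridised to 1-colour Agilent arrays. The authors scanned them and obtained an intensity per spot with Feature Extraction 10.7.3.1, whose processed intensity is already corrected for background. They also deposited log2 values already scaled to the same percentile, used as an alternative. Control and outlier spots were left out, spots of a probe were averaged on the log2 scale, and each array's 75th percentile was subtracted. Of 28685 accessions 27229 matched a RefSeq gene (GRCm38.p6). The clone, gene lists and rules were chosen with earlier results of these data known, and with 1 array of 967B4 its differences were not tested. Named genes were the 15 highest and 15 lowest called genes whose gap exceeded the range of the 5, the 5 markers, called genes of 28 lists, the 5 most lost and most gained genes, genes in runs, 3 lincRNA probes each way and the 5 genes most like Klf4. The 8 listed genes without a probe were left out, and some genes are not reported here. The call rule was tested on simulated data. Alternatives used pandas 2.3.3 in Python 3.11.15, and limma 3.58.1 in R 4.3.3 for normexp with an offset of 50. The number of arrays limits the precision.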

Additional observations from a re-analysis of the deposited data

Results flagged for a closer look

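In each labelled genotype of 6 clones the highest and the lowest clone was compared with the others by Dixon's criterion, which sets the gap to the nearest clone against the whole range. Over 38 measures and 76 groups of clones 18 values passed, where chance passes about 1 group in 20, and 12 of them belonged to 967B4. Clone 967B4 was chosen for standing apart in these same expression values, from which the list means, the 5 marker genes and the call counts are computed. The measures also overlap, since Klf4 and Nanog are in the naive list and Dlk1 is in the Dlk1-Dio3 list. The rate of chance therefore does not apply to the 12 values of 967B4, which are a description.

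In 967B4 the mean level was 3.04 for the naive pluripotency factors, -5.58 for the 2-cell-like genes, -5.21 for the Dlk1-Dio3 cluster, -3.22 for the fibroblast markers and -1.19 for the interferon-inducible genes. Its levels of Dlk1 (-4.67 and -2.68 with its probes), Eras (2.74), Klf4 (4.79), Nanog (0.19) and Phc1 (3.19), and its 1190 probes called lower, passed as well.

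Among the other clones, 979B1 had the lowest mean level of the chaperone genes among the Aid+/+ clones, 3.70 against 3.84 to 3.92. Clone 981E1 had the highest mean level of the trophoblast markers among the clones labelled Aid-/-, 0.31 against -0.63 to -0.43. Clone 981E5 stood apart by 1177 probes called higher, 1064 called lower and a 75th percentile signal of 426 against 479 to 509. In 979F3, labelled male like the rest, the Y-linked genes had a mean level of -7.10 against -0.91 to 0.23 in the other clones labelled Aid-/-.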

How the results depend on the processing

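The number of probes called higher and lower depended on the settings. With normexp background correction it was 277 and 562, with a 1.5-fold limit 2348 and 2566, with a 4-fold limit 42 and 273, and with a gap over the range of the 5 310 and 703. It was 1338 and 2770 with probes well above background on at least 1 of the 6 arrays, 2018 and 3272 with no filter, and 299 and 740 with 1 value per gene. Against 967B2 and 967B6 alone 1103 probes were higher. An alternative chosen after seeing the data, with probes detected on 1 side counted, gave 1185 higher. Leaving out 1 of the 5 gave 614 to 806 higher and 1139 to 1315 lower probes. The median difference of the fibroblast markers was -2.24 with normexp, -3.88 against the clones labelled Aid-/- and -3.25 to -3.08 without 1 of the 5. That of the immediate-early genes was 0.77 with normexp, 0.67 against those clones and 0.88 to 0.98 without 1 of the 5. For the naive factors it was 0.45 against the 979B clones, 0.66 against the clones labelled Aid-/- and 0.51 to 0.60 without 1 of the 5. For the primed genes it was -1.32 against 967B2 and 967B6, -0.56 against the clones labelled Aid-/- and -1.29 to -0.93 without 1 of the 5. For the 2-cell-like genes it was -4.58 with probes detected on at least 1 array, which adds the lost ones, and 0.16 to 0.32 without 1 of the 5. The mean distance of 967B4 to the 5 was 177 with that filter, against 135 to 141 for each of the 5 to the other Aid+/+ clones, 967B4 among them. With normexp 16 of 96 called probes of the lists and named genes were no longer called. Differences of the 45 named probes kept their direction in 630 of 630 recomputations. In each of these probes 967B4 lay beyond all 5 other Aid+/+ clones. Settings that changed only which of the 5 were used, or took their median, could thus not reverse a direction. The filter on at least 1 of the 6 arrays left these differences as they were. Most of these probes were also named for large differences in the same values, so the count of 630 is a description. The other causes were not tested. No paired analysis was possible because the labels give the clones no replicate numbers and the differences of 967B4 were not tested. Dim probes give bounds only, which hold for signals as processed here, and 1 array limits the precision.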
